A study of Mus musculus with 14 samples.

Results

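The 38 mitosis and kinetochore genes described here carry a cell from mitotic entry to cytokinesis. They were chosen by symbol from the 36335 named genes of the deposited tables, and all 38 were found there and had enough counts to be tested. The list was drawn from gene function and not from measured values, although earlier results of these data were known when it was drawn. For each gene the data give total RNA, a labelled share (conversions from a metabolic label over total counts), and the loss of label after it was withdrawn.

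The cells were mouse embryonic stem cells of the E14 line, grown on gelatin with serum and LIF and held for 2 weeks in 200 nM INK128, an inhibitor of the kinase mTOR that puts such cells into a slow, paused state. Wild-type (WT) cells were compared with cells lacking Mettl3 (Mettl3-KO). Mettl3 encodes the enzyme subunit that places N6-methyladenosine on mRNA, a mark known to shorten the life of many transcripts. All groups, WT included, received INK128, so no unpaused cells enter the comparisons, and how many Mettl3-KO clones were used is not given in the sources used here. RNA was labelled with 100 µM 4-thiouridine (S4U) for 12 h, and cells were collected 0, 1, 3 and 8 h after the label was removed. The SLAM-seq chemistry turns labelled uridines into T-to-C conversions in 3′-end libraries, so each gene had a total count and a conversion count. There were 8 Mettl3-KO libraries, 2 at each time, and 6 WT libraries, with 2 each at 1 and 8 h but only 1 each at 0 and 3 h. Whether libraries of a group stem from different cultures is not stated, and the p-values below reflect no more than the spread among these libraries, which may be technical.

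Mitosis is driven by cyclin-dependent kinase 1 with its cyclins and by the Aurora and Polo kinases. Kinetochores assemble on centromeric chromatin and hold the spindle microtubules, and the spindle checkpoint delays anaphase until every kinetochore is attached. The anaphase-promoting complex (APC/C) then marks securin and cyclin B for destruction, sister chromatids part, and the midzone and contractile ring divide the cell. Most transcripts of this group are known to accumulate in G2 and M phase, when the MuvB complex with B-Myb and FoxM1 activates them; the same promoters are repressed in resting cells. Their abundance therefore depends both on how many cells are near mitosis and on how much RNA such a cell holds. In these bulk libraries fewer such cells and less RNA per cell cannot be told apart.

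Promoter sequence is a feature the choice of genes did not use. The cell cycle genes homology region, TTTGAA, is the element through which MuvB complexes are known to bind such promoters, and CCAAT is the element bound by NF-Y. RefSeq promoters (GRCm38.p6, 250 bases before to 50 after the start) were on hand for 31 of the 38 genes and not for Aurkb, Ccna2, Cdc25c, Kif20a, Tpx2, Spc24 and Incenp. TTTGAA was read on both strands in 23 of the 31 (74.2%), against 5466 of 27025 genes in the whole table (20.2%). CCAAT was in 24 of the 31 (77.4%), against 41.1% of all genes, and both were in 21 (67.7%), against 8.97%. A TTTGAA lying from 30 bases before to 44 bases after the start was in 22 of the 31 (71%), against 4.45% of all promoters. Neither motif contains the other on either strand. A match describes letters, not a bound site.

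The stretch from 100 bases before to 50 after the start is printed for 7 genes that the results below turn on or that show the layout clearly, read along the gene's own strand. Capitals mark TTTGAA or its reverse complement TTCAAA, and CCAAT or its reverse complement ATTGG. Cdk1, Top2a and Cdc20 had TTTGAA just before the start and several CCAAT motifs upstream, Plk1 and Cenpf had 1 of each, Ndc80 had TTTGAA alone, and Birc5 had neither in this stretch.
Cdk1, chr10:69352863-69353012, minus strand: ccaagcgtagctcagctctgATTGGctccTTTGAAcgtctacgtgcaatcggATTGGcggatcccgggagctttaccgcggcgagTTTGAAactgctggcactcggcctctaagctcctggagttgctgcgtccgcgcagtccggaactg
Plk1, chr7:122159335-122159484, plus strand: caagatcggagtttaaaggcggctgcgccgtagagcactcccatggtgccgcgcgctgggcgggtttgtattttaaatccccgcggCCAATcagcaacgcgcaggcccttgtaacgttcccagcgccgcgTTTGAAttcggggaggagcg
Cenpf, chr1:189688037-189688186, minus strand: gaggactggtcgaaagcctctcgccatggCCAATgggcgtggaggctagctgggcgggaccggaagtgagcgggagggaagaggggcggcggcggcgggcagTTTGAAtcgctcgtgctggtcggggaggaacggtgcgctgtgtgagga
Ndc80, chr17:71526808-71526957, minus strand: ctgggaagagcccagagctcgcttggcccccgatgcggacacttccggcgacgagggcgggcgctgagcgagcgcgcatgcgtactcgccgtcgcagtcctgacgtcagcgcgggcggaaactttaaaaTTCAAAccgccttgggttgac
Top2a, chr11:99024140-99024289, minus strand: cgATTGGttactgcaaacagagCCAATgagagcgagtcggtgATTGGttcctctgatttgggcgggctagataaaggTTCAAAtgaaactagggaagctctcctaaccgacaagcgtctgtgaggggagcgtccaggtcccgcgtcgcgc
Cdc20, chr4:118437294-118437443, minus strand: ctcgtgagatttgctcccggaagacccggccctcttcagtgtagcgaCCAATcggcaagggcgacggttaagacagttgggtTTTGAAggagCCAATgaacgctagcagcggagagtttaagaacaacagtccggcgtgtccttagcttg
Birc5, chr11:117849137-117849286, plus strand: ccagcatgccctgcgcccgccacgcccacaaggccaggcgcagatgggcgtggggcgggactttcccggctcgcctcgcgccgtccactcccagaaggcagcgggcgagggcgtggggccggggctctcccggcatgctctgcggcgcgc

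The motif began 15 bases before the start in Cdk1 (with another 71 before it), 23 before in Top2a and 18 before in Cdc20. In Plk1, Cenpf and Ndc80 it began 30, 2 and 29 bases after the start. Birc5 and Nusap1 lacked both motifs in the whole 300-base entry. Entries began within 100 bases of the 5′ end of the RefSeq gene span in 28 of the 31 genes. Those of Aurka, Ect2 and Pttg1 began 316, 375 and 1482 bases inside it, so the Pttg1 entry, which lacked both motifs, does not cover the outermost start and is not printed.

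Depth set the precision of everything that follows. Total counts ranged from 6108102 to 26654217 in 12 libraries, but WT 1 h replicate 2 held 49154 and Mettl3-KO 3 h replicate 2 held 602297. Over all genes, conversions were 8.43% and 6.90% of counts in these 2 libraries, against 30.8% and 18.5% in the other library of the same group. The 38 genes together had 193 counts in the first, of which 18.1% were labelled (46.9% in the other library), and 1346 in the second, of which 16.7% were labelled (24.0% in the other). Results are therefore given over all 14 libraries and again over the 12 deep ones. Mettl3 itself was at 1.21 to 2.41 counts scaled to library size (CPM) in the deep Mettl3-KO libraries and at 23.0 to 74.9 CPM in the deep WT libraries. Embryonic stem cell markers summed to 3391 to 4410 CPM in deep WT and 2501 to 4402 CPM in deep Mettl3-KO libraries, though Dppa5a stayed under 3.5 CPM in all 12. The 6 endoderm markers summed to 102 to 140 CPM in WT and 14.7 to 32.8 CPM in Mettl3-KO, mostly Lama1, and the 6 fibroblast markers to 14.8 to 28.8 and 7.66 to 12.1 CPM, with Postn at 0 in all 12. These marker levels move with genotype, and their part in the differences below was not tested.

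The first comparison asked whether loss of Mettl3 changed the steady level of mitotic RNA in paused cells. Summed, the genes made up 0.535% ± 0.0251 of counts in deep WT libraries (SD, n = 5) and 0.589% ± 0.0148 in deep Mettl3-KO libraries (SD, n = 7), with ranges of 0.513% to 0.565% and 0.573% to 0.612% that did not overlap. Over all 14 libraries the values were 0.511% ± 0.0622 (SD, n = 6) and 0.543% ± 0.13 (SD, n = 8), and the ranges, 0.393% to 0.565% and 0.223% to 0.612%, overlapped. Birc5 alone made up 0.0262% of counts in deep WT and 0.0659% in deep Mettl3-KO libraries, and without it the deep ranges of the other 37 overlapped (0.489% to 0.538% and 0.513% to 0.535%). Within the group the changes went both ways. Over 14 libraries 2 genes were higher in Mettl3-KO (Birc5 and Spc24) and 2 were lower (Cenpf and Pttg1) at an edgeR adjusted p under 0.05. Of all 14641 genes tested, 22.1% were called (12.1% higher and 9.99% lower), and 4 of 38 lies under that share. The members' median log2 change was -0.11, against 0.05 for all genes. Over the 12 deep libraries 8 members were higher and 7 lower, where 41.2% of all genes were called (21.9% higher and 19.3% lower).

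**Figure D1:**
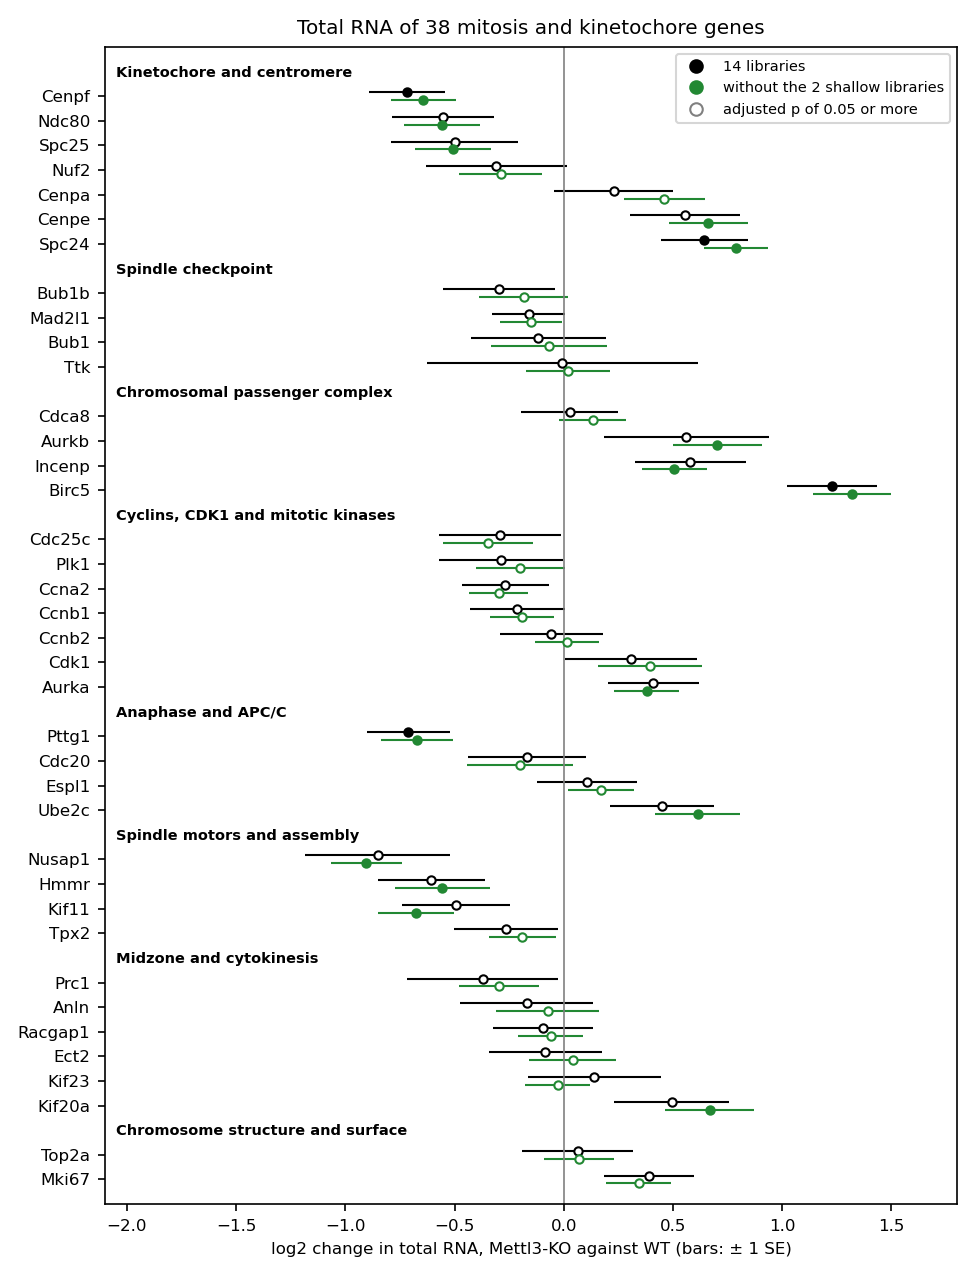
Log2 change in total RNA (Mettl3-KO against WT) for each of the 38 genes by role, with bars of 1 SE; black points use 14 libraries and green points the 12 deep ones, and filled points have an edgeR adjusted p under 0.05. Birc5 lies highest at 1.23 and 1.32, all 4 passenger complex genes lie above 0 (Cdca8 close to it, and below it when any of 4 single libraries was left out), and all 4 spindle genes lie below it.

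The chromosomal passenger complex corrects faulty kinetochore attachments and later directs cytokinesis. Its 4 subunits all had log2 changes above 0, from 0.03 to 1.23, also with library totals or DESeq2 size factors, although Cdca8 was below 0 without Mettl3-KO 1 h replicate 2, Mettl3-KO 3 h replicate 1, WT 8 h replicate 2 or Mettl3-KO 8 h replicate 2. Of the 4, 1 passed the edgeR test over 14 libraries, while DESeq2 also called Incenp (0.48, DESeq2 adjusted p = 0.0112). Birc5, or survivin, which brings the complex to the centromere, ranged from 198 to 327 CPM in WT (median 260, n = 6) and from 375 to 741 CPM in Mettl3-KO (median 629, n = 8). The genotypes did not overlap in any library, a state reached by 6% of all genes over 14 libraries. Birc5 was higher by 1.23 on the log2 scale (SE 0.21, edgeR adjusted p = 0.000884), and by 1.32 (SE 0.18, adjusted p = 1.53e-05) over the 12 deep libraries. Incenp, the scaffold, ranged from 20.3 to 130 CPM in WT (median 116) and from 97.9 to 221 CPM in Mettl3-KO (median 161). Both extremes at the low end were the shallow libraries, and without them the genotypes separated (90.6 to 130 against 152 to 221 CPM). Its log2 change was 0.58 (SE 0.25, edgeR adjusted p = 0.122) over 14 libraries and 0.51 (SE 0.15, adjusted p = 0.011) over 12. Aurkb, the kinase subunit, was measured at 12.6 to 35.1 CPM in WT (median 26.0) and 2.80 to 56.4 CPM in Mettl3-KO (median 42.7). The ranges overlapped, and Aurkb passed only over the 12 deep libraries, at 0.70 (SE 0.20, edgeR adjusted p = 0.0106). Cdca8, or borealin, had a log2 change of 0.03 (SE 0.22) and passed neither test.

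Kinetochore and centromere genes moved in opposite directions, even inside a single complex. Cenpf, a large outer kinetochore protein, ranged from 122 to 189 CPM in WT (median 160) and from 69.9 to 106 CPM in Mettl3-KO (median 98.9). Every Mettl3-KO library lay below every WT library, with a log2 change of -0.72 (SE 0.17, edgeR adjusted p = 0.00919). The NDC80 complex, which grips the microtubule end, has 4 subunits. Spc24, on its centromere-facing side, ranged from 94.1 to 142 CPM in WT (median 126) and from 95.1 to 257 CPM in Mettl3-KO (median 194). Its only Mettl3-KO library inside the WT range was the shallow one, with a log2 change of 0.64 (SE 0.20, edgeR adjusted p = 0.0322). That call was fragile: leaving out any single library other than Mettl3-KO 0 h replicate 1, WT 1 h replicate 2, Mettl3-KO 1 h replicate 2 or Mettl3-KO 3 h replicate 2 gave an adjusted p of 0.0584 to 0.0918. Without both shallow libraries the change was 0.79 (SE 0.15, adjusted p = 0.000358).

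The 3 partners of Spc24 had log2 changes below 0. Ndc80, the microtubule-binding subunit, was at 20.3 to 58.9 CPM in WT (median 45.8) and 22.4 to 50.4 CPM in Mettl3-KO (median 31.6), with overlapping ranges. Spc25, the direct partner of Spc24, was at 20.3 to 119 CPM in WT (median 88.9) and 22.4 to 79.6 CPM in Mettl3-KO (median 68.9). Neither passed over 14 libraries (edgeR adjusted p = 0.106 and 0.249), and over the deep 12 both did, at -0.56 (SE 0.17, adjusted p = 0.0163) and -0.51 (SE 0.17, adjusted p = 0.0257). For Spc25 the deep libraries did not overlap (23.3% of all genes reached this over the deep 12), at 82.6 to 119 against 43.0 to 79.6 CPM. Nuf2, which pairs with Ndc80, had a log2 change of -0.31 (SE 0.32) and passed neither test. Cenpe, the kinesin that moves chromosomes to the metaphase plate, was at 57.9 to 89.8 CPM in WT (median 75.2) and 41.9 to 153 CPM in Mettl3-KO (median 116). Its deep libraries did not overlap, and it passed over those 12 at 0.66 (SE 0.18, edgeR adjusted p = 0.007). Cenpa, the centromeric histone, had a log2 change of 0.46 (SE 0.18, adjusted p = 0.0547) over the 12 deep libraries.

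**Figure D2:**
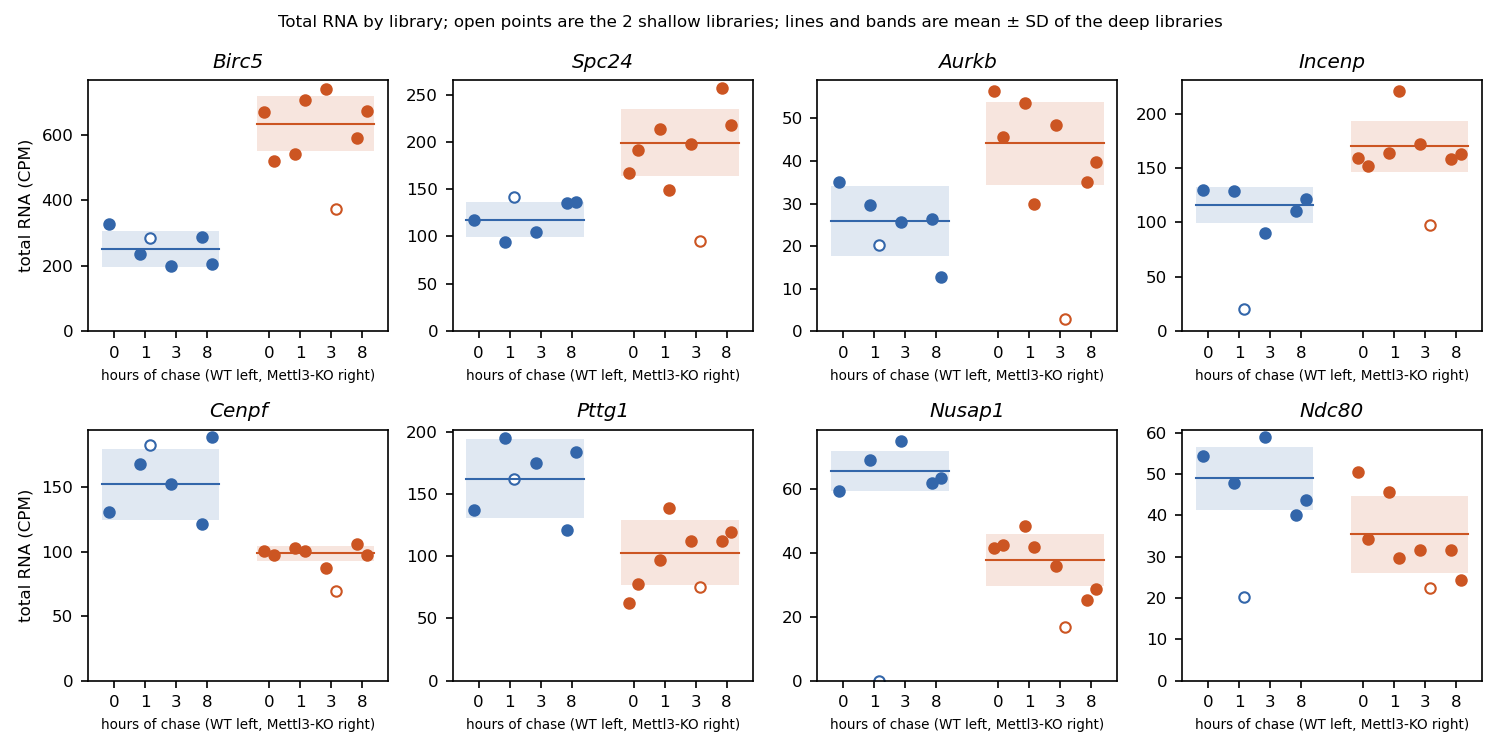
Total RNA in CPM (vertical axes, from 0) of 8 members in each library by hours of chase, WT in blue and Mettl3-KO in orange; lines and bands are mean and SD of the deep libraries, and open points are the 2 shallow libraries. Birc5 and Cenpf separate the genotypes in every library, while Spc24, Incenp and Nusap1 do so among the deep libraries only.

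All 4 spindle assembly factors had log2 changes below 0, under each scaling tried. Over 14 libraries none of the 4 passed in edgeR, with log2 changes from -0.85 to -0.26. DESeq2 called Nusap1 lower there (-0.94, DESeq2 adjusted p = 8.99e-05). Over the deep 12 Nusap1, Kif11 and Hmmr were lower in edgeR. Nusap1, which bundles spindle microtubules near chromatin, was at 0 to 75 CPM in WT (median 62.6) and 16.8 to 48.5 CPM in Mettl3-KO (median 38.7). Both minima were shallow libraries, and the deep ranges, 59.3 to 75 and 25.3 to 48.5 CPM, were apart. Its log2 change was -0.90 (SE 0.16, edgeR adjusted p = 0.000269) over 12 libraries, and -0.85 (SE 0.33, adjusted p = 0.0829) over 14. Kif11, the kinesin that pushes spindle poles apart, was at 40.6 to 114 CPM in WT (median 96.8) and 50.1 to 103 CPM in Mettl3-KO (median 71.2). Hmmr, which organises spindle poles, was at 57.4 to 113 CPM in WT (median 97.7) and 27.0 to 82.8 CPM in Mettl3-KO (median 61.3). Both overlapped between genotypes, and over 12 libraries their log2 changes were -0.68 (SE 0.18, edgeR adjusted p = 0.00506) and -0.56 (SE 0.22, adjusted p = 0.0486). Tpx2, the activator of Aurora A, had a log2 change of -0.26 (SE 0.24).

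Among anaphase genes, Pttg1 and Ube2c differed in direction. Pttg1 encodes securin, the inhibitor of separase. It ranged from 121 to 195 CPM in WT (median 169) and from 62.2 to 139 CPM in Mettl3-KO (median 105), with some overlap. Its log2 change was -0.71 (SE 0.19, edgeR adjusted p = 0.0159), and leaving out WT 0 h replicate 1, WT 1 h replicate 1 or WT 3 h replicate 1 gave an adjusted p of 0.053 to 0.0643. Ube2c, the ubiquitin-conjugating enzyme that works with the APC/C, was at 246 to 505 CPM in WT (median 339) and 238 to 613 CPM in Mettl3-KO (median 498). Those ranges overlapped, and it passed only over the deep 12, at 0.61 (SE 0.19, edgeR adjusted p = 0.0176). Cdc20, the APC/C activator, and Espl1, or separase, had log2 changes of -0.17 (SE 0.27) and 0.11 (SE 0.23).

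Cyclins, CDK1 and the mitotic kinases passed no edgeR test between genotypes over 14 libraries, with log2 changes from -0.29 to 0.41. DESeq2 over the same libraries called Ccna2 lower in Mettl3-KO (-0.34, DESeq2 adjusted p = 0.0138). Aurka, the centrosomal Aurora kinase, was at 40.6 to 140 CPM in WT (median 115) and 106 to 173 CPM in Mettl3-KO (median 151). Its genotypes overlapped, and over 12 libraries it passed narrowly at 0.38 (SE 0.15, edgeR adjusted p = 0.0491). Ccna2, cyclin A2, was at 81.2 to 204 CPM in WT (median 170) and 106 to 180 CPM in Mettl3-KO (median 144). Cdk1 was at 60.9 to 188 CPM in WT (median 115) and 67.1 to 244 CPM in Mettl3-KO (median 153). Neither separated the genotypes. The B-type cyclins, partners of Cdk1, had log2 changes of -0.21 (Ccnb1, SE 0.22) and -0.06 (Ccnb2, SE 0.24). Plk1, the Polo kinase, was at 122 to 357 CPM in WT (median 201) and 95.1 to 279 CPM in Mettl3-KO (median 197), a log2 change of -0.29 (SE 0.28), and Cdc25c, the phosphatase that activates Cdk1, had the same log2 value.

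Checkpoint, cytokinesis and chromosome genes were likewise without an edgeR call over 14 libraries. The checkpoint kinase Bub1b was at 53.5 to 95 CPM in WT (median 76.6) and 30.7 to 87.5 CPM in Mettl3-KO (median 75.6), and Mad2l1, which binds Cdc20, at 88.3 to 117 CPM (median 95.3) and 76.3 to 123 CPM (median 95.2). The medians were close and the ranges overlapped almost entirely. Kif20a, a kinesin of the midzone, was at 36.2 to 122 CPM in WT (median 64.5) and 39.2 to 127 CPM in Mettl3-KO (median 97.3), and passed over the deep 12 at 0.67 (SE 0.20, edgeR adjusted p = 0.0141). Prc1, which bundles midzone microtubules, had a log2 change of -0.37 (SE 0.35), and the centralspindlin subunits Kif23 and Racgap1 and their partner Ect2 lay between -0.10 and 0.14. Top2a, which untangles sister DNA, was at 244 to 801 CPM in WT (median 518) and 249 to 729 CPM in Mettl3-KO (median 569). It had the highest mean CPM of the members over all 14 of these 3′-end libraries. In Mettl3-KO alone Birc5 was higher (mean 602 CPM, against 547 CPM for Top2a). Mki67, which coats mitotic chromosomes, was at 61.1 to 101 CPM in WT (median 72.7) and 79.7 to 162 CPM in Mettl3-KO (median 94.6), without passing either test (adjusted p = 0.199 over 14 libraries and 0.0719 over 12). Ttk, the kinase that starts the checkpoint signal, was at 386 CPM in the shallow WT library and 749 CPM in the shallow Mettl3-KO library, against 64.2 to 114 CPM in the other 12. Its deep-library log2 change was 0.02 (SE 0.19).

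Across the hours after label removal, no member's total RNA was called as rising or falling in either genotype or as differing between them. In edgeR 0% of the 14641 genes were called in each of the 3 tests. At an unadjusted p under 0.05 there were 0 members in WT, 0 in Mettl3-KO and 1 in the difference, against 517, 830 and 728 of all genes, and DESeq2 called 0, 1 (Nusap1) and 1 (Cdk1) members. Over the 12 deep libraries 0 members passed in WT or in Mettl3-KO, where 4.38% of all genes passed in the latter. Cdk1 alone of the members passed for the difference, where 0.549% of all genes did: its total RNA changed by -0.12 log2 per hour in WT and 0.10 in Mettl3-KO, a difference of 0.22 (SE 0.04, edgeR adjusted p = 0.0273). The deep WT values were 188, 132, 156, 97.9 and 73.7 CPM in the order 0, 1, 3, 8 and 8 h. The Mettl3-KO values began at 144 and 154 CPM, were 153 and 103 CPM after 1 h and 173 CPM after 3 h, and ended at 224 and 244 CPM. At 8 h every Mettl3-KO library was above every WT library, while at 0 h WT was the highest.

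The labelled share of a gene is its conversion count as a percent of its total count. Whether conversions were counted per read or per base is not given in the sources used here. The share is therefore not a measured fraction of RNA made during the 12 h pulse. Mitotic genes had higher shares than most genes. In WT at 0 h the median member had 56.5% of counts labelled, against 45.4% for the median tested gene, and 33 of the 38 lay above that median. At 1 h and 3 h the WT members' medians were 46.5% and 25.9% in the deep libraries, against 34.1% and 18.8% for all genes. In Mettl3-KO the members' medians were 40.1% and 39.7% in the 2 libraries at 0 h, against 30.4% and 30.9% for all genes. At 1 h they were little changed, at 37.6% and 40.6%, against 29.2% and 30.9% for all genes. The deep Mettl3-KO library at 3 h had 22.8%, against 18.6% for all genes. By 8 h the lead was gone in Mettl3-KO (2.14% and 2.30%, against 2.31% and 2.39%), where 18 and 16 members lay above the all-gene median. In WT it was small in percentage points (2.71% and 1.96%, against 2.14% and 1.33%) but not in proportion to the shares then left. There 23 and 24 members lay above that median. Since each point is a library over the same genes, this is a description and carries no test.

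**Figure D3:**
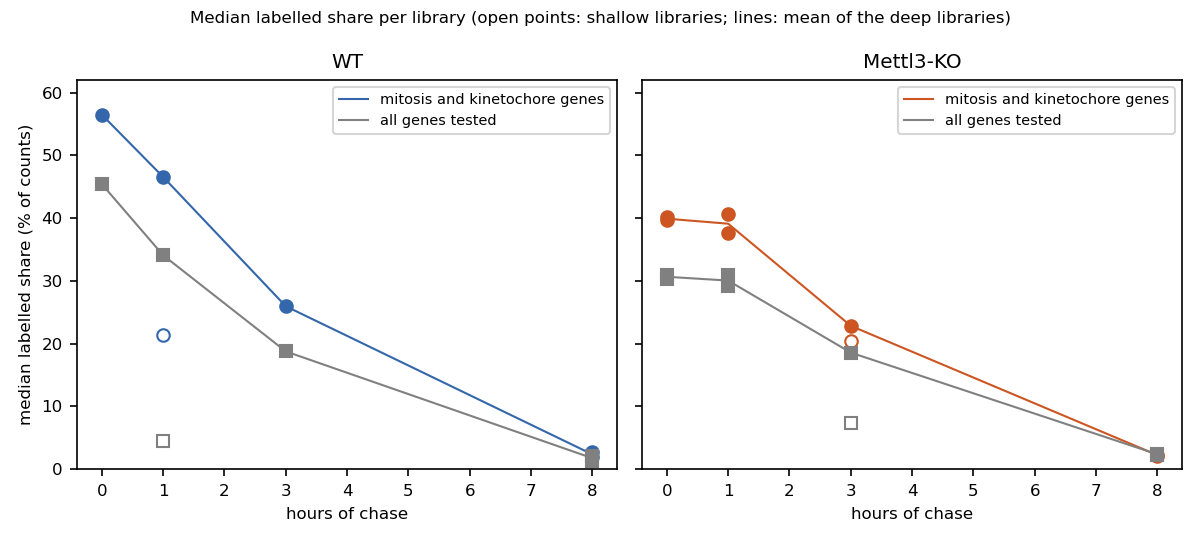
Median labelled share (percent of counts) per library against hours of chase, for the 38 genes (circles) and for all tested genes (grey squares); open points are the shallow libraries and lines join the means of the deep ones. In both genotypes the members start above all genes, at 56.5% against 45.4% in WT at 0 h. On this axis the curves lie close together at 8 h, where WT members were still above all genes (2.71% and 1.96%, against 2.14% and 1.33%).

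At 0 h 37 of the 38 members had a higher labelled share in the single WT library than in Mettl3-KO. The exception was Ndc80, at 50.5% in WT and 62.2% and 58.6% in the 2 Mettl3-KO libraries. The labelled share of all counts moved the same way, at 39.4% in WT and 26.1% and 26.6% in Mettl3-KO. So did the median tested gene, at 45.4% in WT and 30.4% and 30.9% in Mettl3-KO. The same count is not given here for all genes, so 37 of 38 is not read as particular to the members. Shares in WT at 0 h ran from 32.4% in Cdc25c to 70.1% in Anln, the scaffold of the contractile ring, with Cdk1 at 69.9%. In Mettl3-KO they ran from 18.1% in Nusap1 to 60.7% in Ndc80, libraries summed.

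Labelled RNA at 0 h was then tested as conversions per scaled library total. Nusap1 and Pttg1 were lower in Mettl3-KO and no member was higher, where 7.62% of 12678 tested genes were called (1.35% higher, 6.27% lower). The members' median log2 change was -0.49 and that of all genes -0.35. Nusap1 had 51.7% of counts labelled in WT and 11.1% and 25% in Mettl3-KO, and its labelled RNA differed by -1.79 on the log2 scale (SE 0.50, edgeR adjusted p = 0.0122). Pttg1 had 67.4% labelled in WT and 51.9% and 48.5% in Mettl3-KO, a difference of -1.54 (SE 0.51, adjusted p = 0.0436). WT has a single 0 h library, so the 0 h values lean on the fitted lines. The Nusap1 call was lost without WT 0 h replicate 1, Mettl3-KO 0 h replicate 1 or WT 1 h replicate 1 (adjusted p = 0.0787 to 0.0972). The Pttg1 call was kept only without WT 0 h replicate 1, WT 1 h replicate 2, Mettl3-KO 1 h replicate 2, Mettl3-KO 3 h replicate 1 or Mettl3-KO 3 h replicate 2, with adjusted p of 0.0503 to 0.221 for the others. It was also lost with DESeq2 (adjusted p = 0.0622), which called Nusap1 and Hmmr instead, with TMM of the conversion counts (adjusted p = 0.0979) and with a replicate block (adjusted p = 0.166). Over the deep 12 Hmmr (-1.57, SE 0.46, adjusted p = 0.0163) and Plk1 (-1.05, SE 0.36, adjusted p = 0.049) were lower too, where 10.1% of genes were called (1.57% higher, 8.55% lower). Set against each gene's own total count instead, 0 members were called and the members' median was -0.36, against -0.40 for all genes, with 1 gene called among all 12678.

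Label was then lost from nearly all of these RNAs. In WT 37 of the 38 fell over the chase, and in Mettl3-KO 37 of 38. Of all genes 91.4% were called in WT and 88.2% in Mettl3-KO, counted in either direction. The members' median slope was -0.58 log2 per hour in WT (all genes -0.56), a half-life of 1.71 h, and -0.56 in Mettl3-KO (all genes -0.47), a half-life of 1.78 h. Half-lives here are those of conversions relative to total RNA of the library, so they mix decay with dilution by new RNA. They also come from a straight line over all hours, which the first hour in Mettl3-KO did not follow. The members' median shares there were 40.1% and 39.7% at 0 h and 37.6% and 40.6% at 1 h. Hmmr was lost fastest in WT, with a half-life of 1.24 h, followed by Ndc80 at 1.25 h and Cdk1 at 1.32 h. Plk1 was the slowest of the 37, at 2.79 h, with Ccnb2 at 2.33 h. In Mettl3-KO the shortest half-life was 1.46 h, in Aurkb, and the longest among genes that fell were 6.25 h in Spc24 and 6.82 h in Ndc80. Nusap1 in WT (slope 0.01, SE 0.08) and Plk1 in Mettl3-KO (slope -0.05, SE 0.07, edgeR adjusted p = 0.472) were the 2 exceptions. Which gene was the exception in Mettl3-KO depended on the scaling. Measured relative to total RNA of the same gene, Plk1 fell there (slope -0.12, SE 0.04, edgeR adjusted p = 0.0093). Ndc80 then did not pass (slope -0.08, SE 0.05, adjusted p = 0.17), so its half-life of 6.82 h holds for the first scaling only. The labelled share of Plk1 in Mettl3-KO went from 46.1% at 0 h to 25.6% at 8 h, libraries summed.

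**Figure D4:**
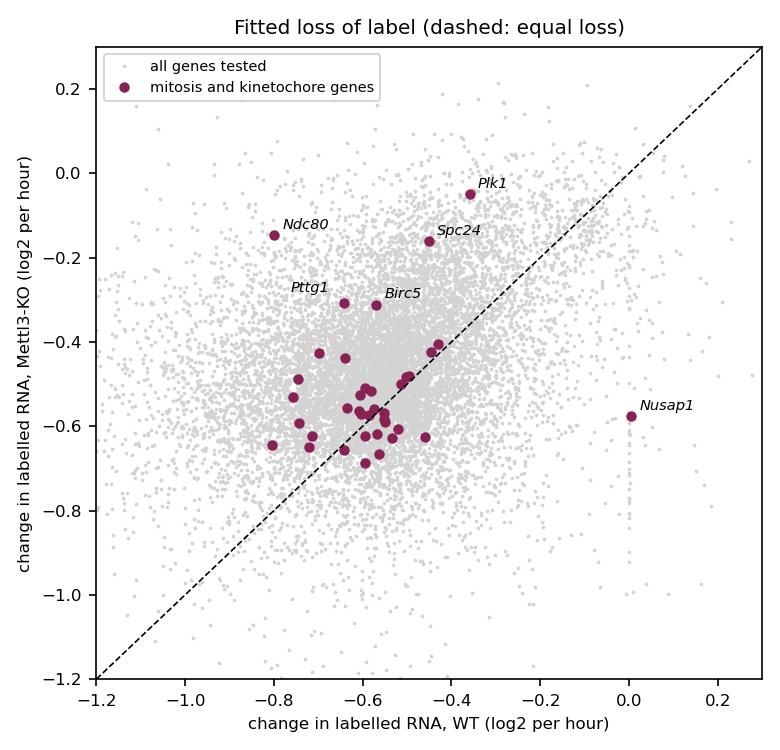
Fitted change in labelled RNA (log2 per hour over 14 libraries) in WT (horizontal) and Mettl3-KO (vertical); grey points are all tested genes, of which 324 lie outside the axes, and coloured points the 38 members. Most members lie near the dashed line of equal loss, Ndc80 lies far above it and Nusap1 far below.

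The question posed by the chase was whether RNA lasted longer without Mettl3. For most of the group no difference was detected: the members' median difference in slope was 0.03 log2 per hour, against 0.10 for all genes, where a value above 0 means slower loss in Mettl3-KO. Ndc80 was lost more slowly and Nusap1 faster, at an edgeR adjusted p under 0.05, where 2.6% of all genes were called (2.4% slower, 0.205% faster). Over the deep 12, 5 members were slower (Ndc80, Plk1, Pttg1, Birc5 and Spc24) and Nusap1 was faster, where 5.35% of genes were called (5.05% slower, 0.3% faster).

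Ndc80 (chr17:71496100-71526857, GRCm38.p6, with no other gene overlapping it in RefSeq) gave the widest contrast. The tables hold no read positions, so conversions made by the label and T-to-C differences already present in the DNA cannot be told apart for this gene, nor for Nusap1 and Plk1 below. In WT its labelled share began at 50.5%, was 62.1% after 1 h and 22.6% after 3 h, and ended at 1.31% and 0.348% after 8 h, leaving out the shallow library. In Mettl3-KO it began at 62.2% and 58.6%, was 57.9% and 61.5% after 1 h and 43.1% after 3 h, and ended at 39.4% and 41.4%. The 8 h libraries of the genotypes were thus far apart, with 95% Wilson intervals (counting error only) of 0.665% to 2.56% and 0.0615% to 1.95% in WT and of 34.5% to 44.6% and 37.7% to 45.3% in Mettl3-KO. The slopes were -0.80 (SE 0.11) in WT and -0.15 (SE 0.07) in Mettl3-KO, and they differed by 0.65 (SE 0.12, edgeR adjusted p = 0.00157). Leaving out any 1 library kept this call. Its partners Nuf2 and Spc25 had 8 h shares of 1.08% and 2.13% in WT and 2.56% and 2.10% in Mettl3-KO, and their slope differences of 0.26 (SE 0.14) and 0.08 (SE 0.12) did not pass.

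Nusap1 (chr2:119618298-119650165) ran the other way, and its WT libraries disagreed. Its share in WT began at 51.7%, was 42.0% after 1 h and 25.2% after 3 h, and was then 64.2% in one 8 h library and 28.6% in the other, while its total RNA stayed at 59.3 to 75 CPM. Mettl3-KO libraries began at 11.1% and 25%, had 11.5% and 10.2% after 1 h and 6.69% after 3 h, and ended at 0.348% and 1.44%. The WT share thus fell until 3 h and was higher again at 8 h, which no other member showed in WT. The slopes differed by -0.58 (SE 0.12, edgeR adjusted p = 0.00308), and no single library's removal ended the call. In the shallow WT library Nusap1 had 1 conversion and 0 total counts, the only case among the 38 genes of a library with more conversions than total counts. The span of Nusap1 overlaps the coding gene Oip5; the strand setting of the counting is not given in the sources used here, so reads of the 2 genes might be mixed.

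Plk1 was the third gene with an 8 h share above 20%. That state was reached, in either genotype, by 97 of 8750 genes with enough counts (1.11%), and by 3 members (Nusap1 in WT, Ndc80 and Plk1 in Mettl3-KO). Plk1 shares in WT began at 58.2%, passed through 49.1% after 1 h and 28.0% after 3 h, and ended at 11.0% and 10.3%. In Mettl3-KO it had 42.2% and 49.5%, then 42.5% and 49.1%, then 32.4%, then 23.0% and 26.5% at the same times. Mettl3-KO therefore began lower and ended higher. Its slope difference was 0.31 (SE 0.10, edgeR adjusted p = 0.0724) over 14 libraries and 0.33 (SE 0.08, adjusted p = 0.00497) over 12. Over 14 libraries DESeq2 called it (0.31, DESeq2 adjusted p = 0.0103), and the own-total offset did not (0.18, edgeR adjusted p = 0.0863).

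**Figure D5:**
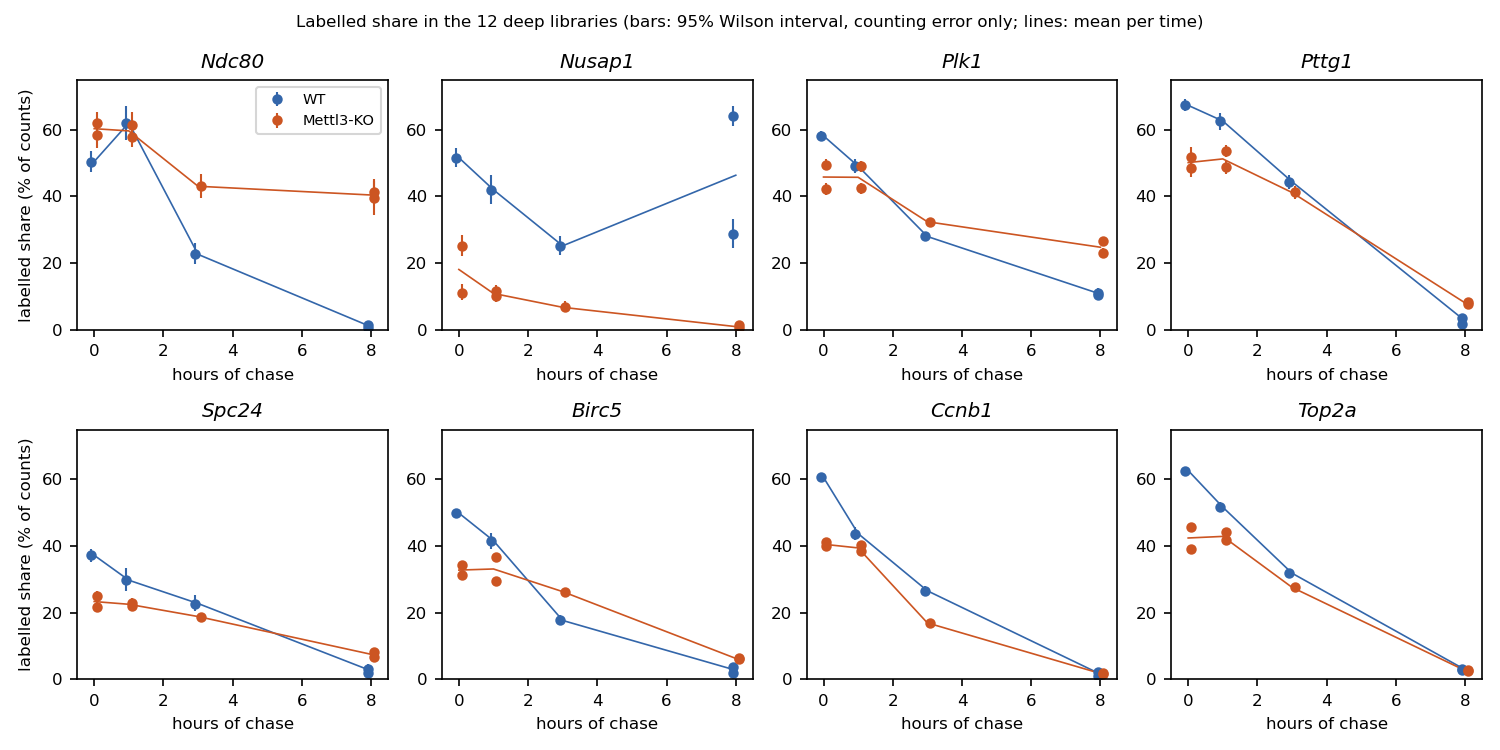
Labelled share (percent of counts) against hours of chase for 8 members in the 12 deep libraries, WT in blue and Mettl3-KO in orange, with 95% Wilson intervals and lines through the means. Ndc80 stays near 40% at 8 h in Mettl3-KO and near 1% in WT. Nusap1 is higher in WT at 8 h, where its 2 libraries disagree (mean 46.4%, SD 25.1), and near 1% in Mettl3-KO. Ccnb1 and Top2a end at similar low shares in both.

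Over the deep 12 a smaller difference toward slower loss was called in Spc24, Birc5 and Pttg1. At 8 h Spc24 had 1.85% and 3.13% of counts labelled in WT and 8.29% and 6.60% in Mettl3-KO. Birc5 had 1.8% and 3.52% in WT and 6.33% and 6.10% in Mettl3-KO, and Pttg1 3.47% and 1.74% in WT and 7.67% and 8.36% in Mettl3-KO. In all 3 genes both Mettl3-KO libraries were above both WT libraries, although at 0 h they had been below. Their slope differences over the deep 12 were 0.30 (SE 0.09, edgeR adjusted p = 0.0282), 0.26 (SE 0.07, adjusted p = 0.0223) and 0.36 (SE 0.10, adjusted p = 0.0187). None passed in edgeR over 14 libraries (adjusted p = 0.103, 0.142 and 0.0946). DESeq2 over the same 14 called Spc24 (0.29, DESeq2 adjusted p = 0.0104) and Birc5 (0.26, adjusted p = 0.0221) but not Pttg1. With each gene's own total as offset Spc24 passed (0.28, edgeR adjusted p = 0.0443). Birc5 and Pttg1 did not (adjusted p = 0.0509 and 0.0855). Slower loss went with higher total RNA in Birc5 and Spc24 and with lower total RNA in Pttg1.

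For the remaining members no difference in loss was called, which does not show that they were lost alike. Ccnb1 fell from 60.6% at 0 h to 2.02% and 0.939% at 8 h in WT, and from 41.1% and 40.0% to 1.53% and 1.84% in Mettl3-KO. Its slope difference was 0.09 (SE 0.11). Top2a fell from 62.7% to 2.65% and 3.00% in WT, and from 39.0% and 45.8% to 2.71% and 2.44% in Mettl3-KO, with a difference of 0.01 (SE 0.11). Cenpf, whose total RNA was lower in Mettl3-KO, had a slope difference of 0.07 (SE 0.11), with 8 h shares of 2.92% and 1.53% in WT and 2.16% and 2.37% in Mettl3-KO. All 4 checkpoint genes lay between 0.02 and 0.09, and the 6 midzone and cytokinesis genes between -0.10 and 0.07. Summed per genotype at 8 h, the share was higher in Mettl3-KO for 14 members and higher in WT for 24. It was over 2 times as high in Mettl3-KO for 7 members and over 2 times as high in WT for 4. The same counts are not given here for all genes. Median 8 h shares of the 8750 genes with enough counts were 2.37% in WT and 2.47% in Mettl3-KO. Ratios on both sides can rest on few conversions, such as 8 for Nuf2 in WT and 21 for Aurkb in Mettl3-KO.

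Other genes of mitosis, from a list of further kinetochore, checkpoint, APC/C, cohesin, condensin, spindle and mitotic entry genes, were counted in the same way. Of 115 listed symbols 110 were in the tables and tested. In total RNA over 14 libraries 7 were higher and 7 lower, where 22.1% of all genes were called (12.1% higher and 9.99% lower). Lin37 and Mybl2, a MuvB subunit and B-Myb, were lower in Mettl3-KO at log2 changes of -2.16 (SE 0.29, edgeR adjusted p = 0.000168) and -1.41 (SE 0.26, adjusted p = 0.00159). Foxm1 went the other way and was higher at 0.69 (SE 0.23, adjusted p = 0.0456). The MuvB genes Lin9 and Lin52 were not called, at -0.26 (SE 0.27, adjusted p = 0.534) and -0.93 (SE 0.38, adjusted p = 0.0982). Bora, the activator of Aurora A toward Plk1, was lower at -1.94 (SE 0.30, adjusted p = 0.000454), as was the checkpoint gene Mad1l1 at -0.97 (SE 0.23, adjusted p = 0.00871). Cenpw, of the inner kinetochore, was higher at 1.59 (SE 0.41, adjusted p = 0.0144), as were Ska1, which helps kinetochores track microtubules, at 0.82 (SE 0.22, adjusted p = 0.0148), the APC/C subunit Anapc15 at 0.93 (SE 0.25, adjusted p = 0.0149) and Mad2l1bp, a Mad2 antagonist, at 0.78 (SE 0.25, adjusted p = 0.0351). In mean CPM Lin37 was at 37.3 ± 9.79 in WT (SD, n = 6) and 9.06 ± 4.69 in Mettl3-KO (SD, n = 8), Bora at 130 ± 57.6 and 37.1 ± 11.6, and Mybl2 at 146 ± 48.7 and 59.4 ± 17.4. Cenpw was at 50.9 ± 11.6 and 206 ± 211, so its Mettl3-KO libraries differed widely and the SD was above the mean. For loss of label, Anapc15 (0.48, SE 0.12, edgeR adjusted p = 0.0159), Cenpw (0.37, SE 0.11, adjusted p = 0.0382) and Anapc11 (0.35, SE 0.11, adjusted p = 0.0497) were slower in Mettl3-KO and none was faster. Among all genes 2.4% were slower and 0.205% faster over 14 libraries. Over the deep 12 the counts were 22 higher and 23 lower for total RNA, where 21.9% and 19.3% of all genes were. For loss they were 5 slower and 0 faster, where 5.05% and 0.3% of all genes were.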

How the data were processed

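The deposited tables hold raw total counts and raw conversion counts per gene for each library; the deposited log and half-life tables were not used here. The submitters' processing notes name the mm10 build, edgeR 3.32.1, Subread 1.5.0 with featureCounts, and Trim Galore 0.4.0. Not given in the sources used here are the aligner, the conversion caller, and if conversions were counted per read or per base. One entry without a gene name (0.00707% to 0.0312% of counts) was removed.

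Total counts were fitted with edgeR 4.0.16 in R 4.3.3 (TMM, robust quasi-likelihood F test, time and genotype as terms) for the 14641 genes reaching 10 counts in 6 or more libraries. Trends over hours used genotype by hours. Conversion counts were fitted with genotype by hours for 12678 genes reaching 10 in 3 or more libraries, scaled by the TMM-scaled totals. A half-life is -1 over the log2 slope. SEs come from the log2 value and its F. P-values were adjusted over all genes tested (Benjamini-Hochberg, threshold 0.05). CPM are counts scaled to a common library total. The scripts were tested on simulated data.

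Members, role groups, other lists and markers were chosen with earlier results of these data known. Values by library are given for members called between genotypes and members above 20% at 8 h. They are also given for the 2 smallest p per role group and the highest mean CPM. Other pathway genes are at most 8 per comparison by p, with Foxm1, Lin9 and Lin52 added for total RNA. Alternatives: no filter, a stricter filter, DESeq2 1.42.0, library totals, TMM of conversions, own totals as offset, a replicate block, and leaving out libraries. Wilson intervals (95%) cover counting error only.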

Additional observations from a re-analysis of the deposited data

Results flagged for a closer look

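Among 76 sets of libraries (each member's CPM in WT and in Mettl3-KO), 11 had a library far from the others, where chance flags about 1 in 20, or 3.8. Of these, 6 were in WT 1 h replicate 2 and 4 in Mettl3-KO 3 h replicate 2, the 2 shallow libraries. In WT 1 h replicate 2, Nusap1 and Kif23 were at 0 CPM, Incenp and Spc25 at 20.3 CPM (1 count each is worth that much there) and Kif11 at 40.6 CPM, all lowest of 6, and Ttk at 386 CPM was highest. In Mettl3-KO 3 h replicate 2, Ccnb2 at 30.8 CPM and Prc1 at 22.4 CPM were lowest of 8, and Mki67 at 162 CPM and Ttk at 749 CPM were highest. The remaining one was Ect2, highest of 8 at 175 CPM in Mettl3-KO 0 h replicate 1, a deep library.

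Loss of label differed between the genotypes by the interaction test for 2 members: Ndc80, by 0.65 log2 per hour (slower in Mettl3-KO), and Nusap1, by -0.58 (faster in Mettl3-KO). In Nusap1 the 2 WT libraries at 8 h gave shares of 64.2% and 28.6%. Conversion counts thus stayed high at 8 h in WT for Nusap1 and in Mettl3-KO for Ndc80. Whether they are label or a T-to-C difference in the DNA of those cells was not tested, since the tables hold no read positions.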

How the results depend on the processing

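The loss differences of Ndc80 and Nusap1 and the total RNA calls of Birc5 and Cenpf kept direction and call under every alternative run on them. Counts of members moved more. For total RNA, members higher (2) became 1 without a count filter or with library totals, and 8 without the shallow libraries. Members lower (2) became 5 with DESeq2 (Cenpf, Pttg1, Nusap1, Ndc80 and Ccna2) and 7 without the shallow libraries. Over trends with hours (0 each), DESeq2 called 1 member in Mettl3-KO and 1 for the difference, and leaving out the shallow libraries 1 for the difference. For labelled RNA at 0 h, TMM of the conversion counts called 1 higher and 1 lower, the own-total offset 0 lower and the 12 deep libraries 4 lower. For slower loss (1), DESeq2 gave 4 (Ndc80, Plk1, Spc24 and Birc5), the own-total offset 2 (Ndc80 and Spc24) and the deep libraries 5. With TMM of the conversion counts, which removes a shared fall by construction, 3 members fell in WT and 11 in Mettl3-KO. All genes called there in either direction were 919 and 2697. That scaling moved the all-gene median at 0 h from -0.35 to 0.06, and the share of calls that were higher to 43.9%.

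For all genes, total RNA calls were 2070 without a filter and 6001 without the shallow libraries. The 0 h calls fell to 1 with the own-total offset, and loss calls rose to 743 with DESeq2 and 678 without the shallow libraries. Trend calls with DESeq2 were 32 in WT, 554 in Mettl3-KO and 201 for the difference, and without the shallow libraries 638 in Mettl3-KO and 80 for the difference. The cause was not tested.

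Leaving out 1 library at a time gave 1 to 6 members higher and 1 to 5 lower in total RNA (all genes 2236 to 5281), 0 to 3 lower at 0 h (389 to 1197), and 1 to 2 slower in loss (68 to 557). All-gene trends over hours gave 0 to 150 in Mettl3-KO and 0 to 17 for the difference.

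Libraries share only a replicate number: over 15 pairs of groups same-numbered deviations correlated at -0.08 to 0.30, 2 pairs above 0.1. With a replicate block, members lower at 0 h became 1 and all-gene calls there 608.

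In total RNA 9 members changed sign under some alternative, and in the loss difference 21 did. Their sizes with 14 libraries were at most 0.17 and 0.09, and no changed sign was called. Without the shallow libraries the total RNA values were 0.015 for Ccnb2, 0.041 for Ect2, -0.027 for Kif23 and 0.020 for Ttk. With a replicate block they were 0.041 for Anln, 0.15 for Bub1, 0.014 for Ccnb2 and 0.063 for Ect2. Leaving out 1 library at a time gave -0.32 to 0.024 for Anln, -0.28 to 0.035 for Bub1, -0.16 to 0.055 for Ccnb2, -0.085 to 0.11 for Cdca8 and -0.21 to 0.14 for Ect2. It gave -0.012 to 0.27 for Kif23, -0.17 to 0.044 for Racgap1, -0.059 to 0.18 for Top2a and -0.45 to 0.43 for Ttk. Among loss differences printed above, TMM of the conversion counts gave -0.018 for Cenpf, -0.0023 for Spc25 and -0.074 for Top2a. For Top2a a replicate block gave -0.024, and leaving out 1 library -0.059 to 0.069.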
